A study of Mus musculus with 4 samples.

Results

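Transcript levels of the subunit genes of RNA polymerases I, II and III were compared in Beko cells kept in a γ-secretase inhibitor and in Beko cells from which the inhibitor had been washed out. The genes were taken by symbol, as every row of the count table whose name starts with Polr1, Polr2 or Polr3 followed by a letter, which gave 28 of 24391 rows, namely 5 Polr1, 13 Polr2 and 10 Polr3 genes. Beko is a mouse pre-T cell leukemia line with an active Notch pathway. γ-secretase releases the Notch intracellular domain, which acts in the nucleus with the DNA-binding protein RBPJ, and the inhibitor (GSI, here DAPT) blocks that step. In the GSI group (2 libraries) cells stayed in DAPT for 48 h, with fresh inhibitor at 24 h. In the washout group (2 libraries) cells received the same 48 h in DAPT, were washed and grew for another 24 h without it. The washout cells were thus also handled and cultured for longer than the GSI cells, and these differences cannot be told apart from the removal of the inhibitor. Cells that never met the inhibitor were not analysed here. The labels do not say that the replicates were separate cultures, so p-values measure the spread between these libraries, which may be technical.

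RNA polymerase I makes the large ribosomal RNA precursor, RNA polymerase II makes messenger RNAs, and RNA polymerase III makes transfer RNAs, the small ribosomal RNA and other short RNAs. The enzymes are built around a common core: Polr1c and Polr1d serve in polymerases I and III, and Polr2e, Polr2f, Polr2h, Polr2k and Polr2l serve in all of them, so the number in a symbol does not name every enzyme a subunit belongs to. The catalytic center of each enzyme is formed by its largest and second-largest subunits, which are Polr1a and Polr1b, Polr2a and Polr2b, and Polr3a and Polr3b. Growing and dividing cells are known to need more of polymerases I and III, since ribosomes and transfer RNAs make up most of their RNA.

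Total counts were between 13716199 and 36364200 per library, and the replicate-2 libraries were the shallower of each group. All 28 genes passed the filter on low counts, and the lowest count of any of them was 103, for Polr2k in a GSI library. Levels are given as CPM, the counts of a gene per 1000000 counts of its library, with libraries scaled by the TMM method of edgeR. All 13 markers of T-cell progenitors were above 1 CPM in every library, with a summed level of 7370 to 7900 CPM in GSI and 6460 to 6560 CPM in washout. Single markers moved in both directions within that sum. Ptcra was at 47.1 and 54.4 CPM in GSI and at 249 and 276 CPM in washout, whereas Dntt went from 1480 and 1530 to 462 and 517 CPM, Gata3 from 262 and 208 to 75.8 and 71.7 CPM, and Tcf7 from 1060 and 1010 to 581 and 555 CPM. Of the markers of other cells, the mast cell list summed to 77.4 to 176 CPM in GSI and 2.23 to 9.34 CPM in washout, all of it from Cpa3, with Ms4a2, Fcer1a, Mcpt4 and Tpsb2 at 0. The monocyte list summed to 38.1 to 48.9 CPM in GSI and 4.99 to 5.49 CPM in washout, nearly all of it from Itgam (48.7 and 37.9 CPM in GSI, 5.38 and 4.76 CPM in washout), with Lyz2 at 0 and Csf1r at 0.118 to 0.188 CPM. The B cell list summed to 0.75 to 0.96 CPM in GSI and 0.323 to 0.372 CPM in washout, with Pax5 and Ms4a1 at 0. The erythroid list summed to 0.969 to 1.58 CPM in GSI and 0.793 to 0.893 CPM in washout, with the hemoglobin genes at 0. The fibroblast list summed to 3.02 to 3.09 CPM in GSI and 1.38 to 1.56 CPM in washout, with Col3a1 and Dcn at 0. The part of these lists in the results below was not tested. In such bulk libraries fewer cells of a type and less RNA per cell cannot be told apart.

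Upon washout most polymerase genes were higher. At an adjusted p under 0.05 (edgeR's quasi-likelihood test, Benjamini-Hochberg over the 12266 genes tested), 24 of the 28 rose, 1 fell (Polr3gl) and 3 did not pass (Polr2a, Polr2i and Polr3c). Over all genes tested, 27.0% were called higher and 25.4% lower by the same rule. The median log2 fold change (washout against GSI) was 0.70 over the 28 genes and -0.0096 over all genes tested. With a log2 fold change beyond 1 as a further condition, 7 rose (Polr1a, Polr1b, Polr2f, Polr2h, Polr2l, Polr3e and Polr3g) and 0 fell, beside 7.74% of all genes higher and 11.7% lower. Both washout libraries lay above both GSI libraries for 25 genes and below them for 1, where the shares among all genes were 38.2% and 39.1%. These counts rest on TMM scaling. With total counts alone the median over all genes moved to -0.21, 19 polymerase genes rose and 1 fell, and the split among all genes tested went from 3315 higher and 3120 lower to 2315 and 4250. Under that scaling Polr1a, Polr1b and Polr2l passed both thresholds.

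**Figure D1:**
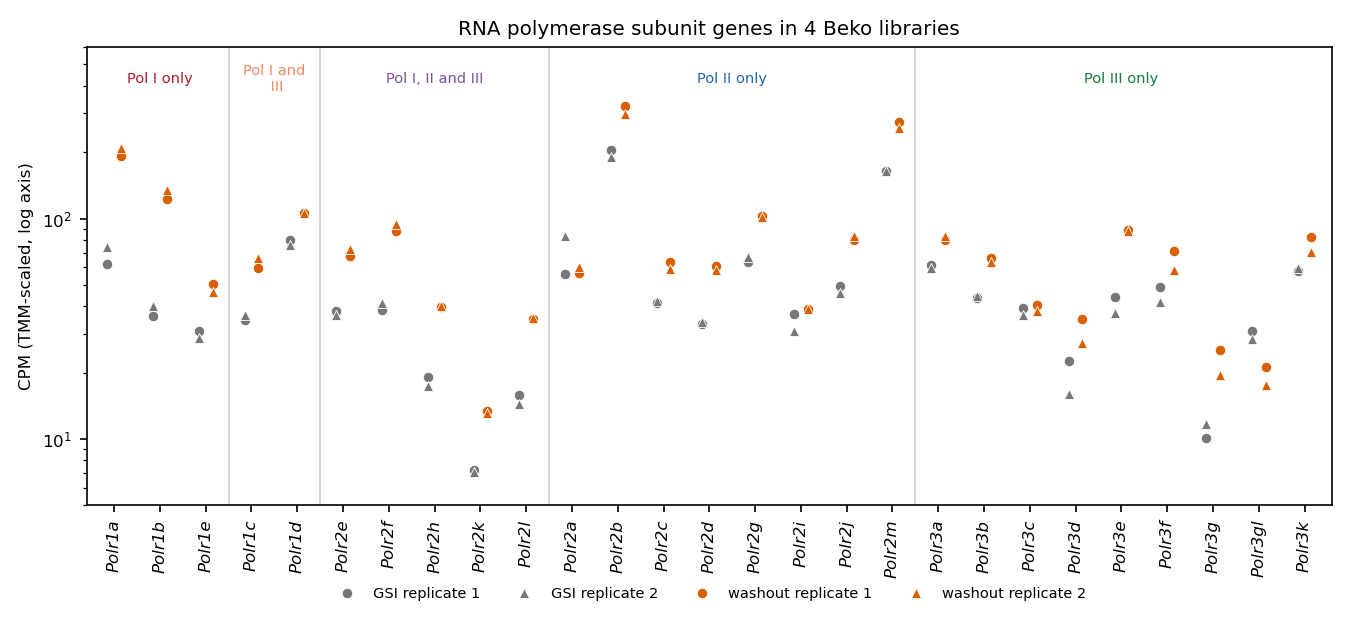
TMM-scaled CPM (log axis) of 27 subunit genes in each library, grouped by the enzymes that a subunit serves; gray points are GSI, orange points washout, circles replicate 1 and triangles replicate 2. The orange points lie above the gray ones for 24 genes, below them for Polr3gl, and among them for Polr2a and Polr3c.

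Notch acts on DNA through RBPJ, so promoters were searched for motifs. In the study, RBPJ sites whose binding depended on Notch activity were mostly far from transcription starts. A promoter window leaves out such distal sites, and the RBPJ binding measured by the study was not used here. Polr1b, Polr3e and Polr3g rose past both thresholds, and Polr3gl fell. Of the other genes past both thresholds, Polr1a, Polr2f and Polr2l held no match and Polr2h held matches. The 4 promoters shown are thus examples that each hold a match, not a sample of the genes that rose. They come from RefSeq (GRCm38.p6), cover 250 bases before the annotated start and 50 from it, and are written 5′ to 3′ on the gene's strand, with matches in capitals. The motifs searched on both strands were the RBPJ core TGGGAA (reverse complement TTCCCA), the palindromic E-box CACGTG bound by Myc and related factors, and GTTCGANNC, the core of the B box by which the factor TFIIIC finds transfer RNA genes. The last was added after the promoters had been read. No matches of different motifs overlapped.
Polr1b (chr2:129100746-129101045, plus strand): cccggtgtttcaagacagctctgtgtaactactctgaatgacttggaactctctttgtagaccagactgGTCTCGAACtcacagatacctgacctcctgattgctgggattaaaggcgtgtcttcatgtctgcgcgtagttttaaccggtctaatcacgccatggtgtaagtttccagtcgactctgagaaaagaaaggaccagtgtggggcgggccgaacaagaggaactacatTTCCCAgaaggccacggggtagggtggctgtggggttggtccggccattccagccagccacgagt
Polr3e (chr7:120917528-120917827, plus strand): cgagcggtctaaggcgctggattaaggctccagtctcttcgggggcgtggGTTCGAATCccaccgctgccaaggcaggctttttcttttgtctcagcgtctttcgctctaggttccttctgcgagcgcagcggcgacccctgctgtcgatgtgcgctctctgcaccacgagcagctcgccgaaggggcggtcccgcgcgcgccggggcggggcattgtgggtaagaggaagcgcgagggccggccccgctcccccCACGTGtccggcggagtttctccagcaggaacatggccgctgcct
Polr3g (chr13:81710964-81711263, minus strand): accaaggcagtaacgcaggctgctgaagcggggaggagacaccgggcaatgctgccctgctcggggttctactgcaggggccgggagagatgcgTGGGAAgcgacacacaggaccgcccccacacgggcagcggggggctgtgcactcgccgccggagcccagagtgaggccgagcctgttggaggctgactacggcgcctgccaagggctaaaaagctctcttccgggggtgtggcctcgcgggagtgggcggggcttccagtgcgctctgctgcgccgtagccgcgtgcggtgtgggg
Polr3gl (chr3:96594132-96594431, minus strand): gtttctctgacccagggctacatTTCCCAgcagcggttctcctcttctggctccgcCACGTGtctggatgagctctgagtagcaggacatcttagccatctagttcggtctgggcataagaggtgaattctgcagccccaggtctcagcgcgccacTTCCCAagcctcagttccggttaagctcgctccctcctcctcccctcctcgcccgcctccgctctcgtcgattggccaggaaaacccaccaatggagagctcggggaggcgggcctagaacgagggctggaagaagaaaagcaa
In Polr1b a reverse RBPJ core begins 15 bases upstream of the start and a reverse B box core 181 bases upstream. In Polr3e the E-box begins 5 bases downstream of the start and the B box core 200 bases upstream. Whether these B box cores lie in a repeat or in a separate transfer RNA gene next to the polymerase gene was not tested. Polr3g holds an RBPJ core 156 bases upstream, whereas Polr3gl holds an E-box 194 bases upstream and reverse RBPJ cores 227 and 94 bases upstream.

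Of the 28 genes, 22 had a promoter in the table, with 24 promoters in all. Polr2d, Polr2g, Polr2k, Polr3a and Polr3d were among those with no entry. An RBPJ core was present in 12 of the 24 promoters, from 11 genes, and in 8397 of all 32851 promoters (25.6%). These genes were Polr1b, Polr1c, Polr1d, Polr2b, Polr2e, Polr2h, Polr2m, Polr3c, Polr3g, Polr3gl and Polr3k, so the core occurred in genes that rose, in the gene that fell and in a gene that did not pass. Polr1a, Polr2f and Polr2l, which rose past both thresholds, had no match to any of the motifs. Nor had Polr1e, Polr2a, Polr2c, Polr2i, Polr3b and Polr3f. The E-box was present in 4 of the 24 promoters (16.7%), those of Polr2h, Polr3c, Polr3e and Polr3gl, and in 2349 of all promoters (7.15%). The B box core was present in 3 (12.5%), those of Polr1b, Polr2j and Polr3e, and in 277 of all promoters (0.843%). Since this motif was added after these same promoters had been read, the difference between its shares cannot be taken as a result. A match is a run of letters and was not tested as a binding site.

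The largest rises were those of the catalytic subunits of polymerase I. Polr1a, the largest subunit (mm9 chr6:71859047-71929350), was at 62.5 and 74.5 CPM in the GSI libraries and at 193 and 209 CPM in the washout libraries. Polr1b, the second-largest subunit (mm9 chr2:128926731-128952330), was at 36.0 and 39.9 CPM in GSI and at 122 and 135 CPM in washout. For both genes the washout libraries were far above the GSI libraries, with no overlap. Polr1a rose 2.94-fold (log2 fold change 1.56, SE 0.12, adjusted p = 0.000389) and Polr1b 3.40-fold (1.76, SE 0.11, adjusted p = 0.000305). The change of Polr1b was above that of 98.9% of the genes tested. Polr1a and Polr1b were also the genes that passed a stricter test, edgeR's glmTreat against a log2 fold change of 1, which no other gene of the 28 passed. Polr1e, which helps the enzyme to start and to elongate, was at 30.8 and 28.6 CPM in GSI and at 50.3 and 46.6 CPM in washout, a smaller rise (0.70, SE 0.11, adjusted p = 0.00263).

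Some polymerase I subunits carry other names and were followed as a list of 3. Cd3eap, the partner of Polr1e in the enzyme, was at 27.0 and 22.1 CPM in GSI and at 70.9 and 65.6 CPM in washout (log2 fold change 1.47, SE 0.13, adjusted p = 0.000508). Twistnb, a subunit of the stalk, also rose (0.90, SE 0.20, adjusted p = 0.0116). Znrd1, the small subunit used in RNA cleavage, did not pass (0.08, SE 0.14, adjusted p = 0.648). The subunits of polymerase I thus did not move by equal amounts, from 0.08 for Znrd1 to 1.76 for Polr1b.

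Polr1c and Polr1d form the pair on which polymerases I and III assemble. Polr1c was at 34.8 and 36.7 CPM in GSI and at 59.6 and 66.1 CPM in washout (log2 fold change 0.81, SE 0.10, adjusted p = 0.00144). Polr1d was at 80.0 and 75.9 CPM in GSI and at 106 CPM in each washout library (0.44, SE 0.09, adjusted p = 0.00762). Both rose, and Polr1d had the smallest change among the Polr1 genes. Its call was lost without GSI replicate 2 (adjusted p = 0.0607) and under total-count scaling (adjusted p = 0.0633).

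**Figure D2:**
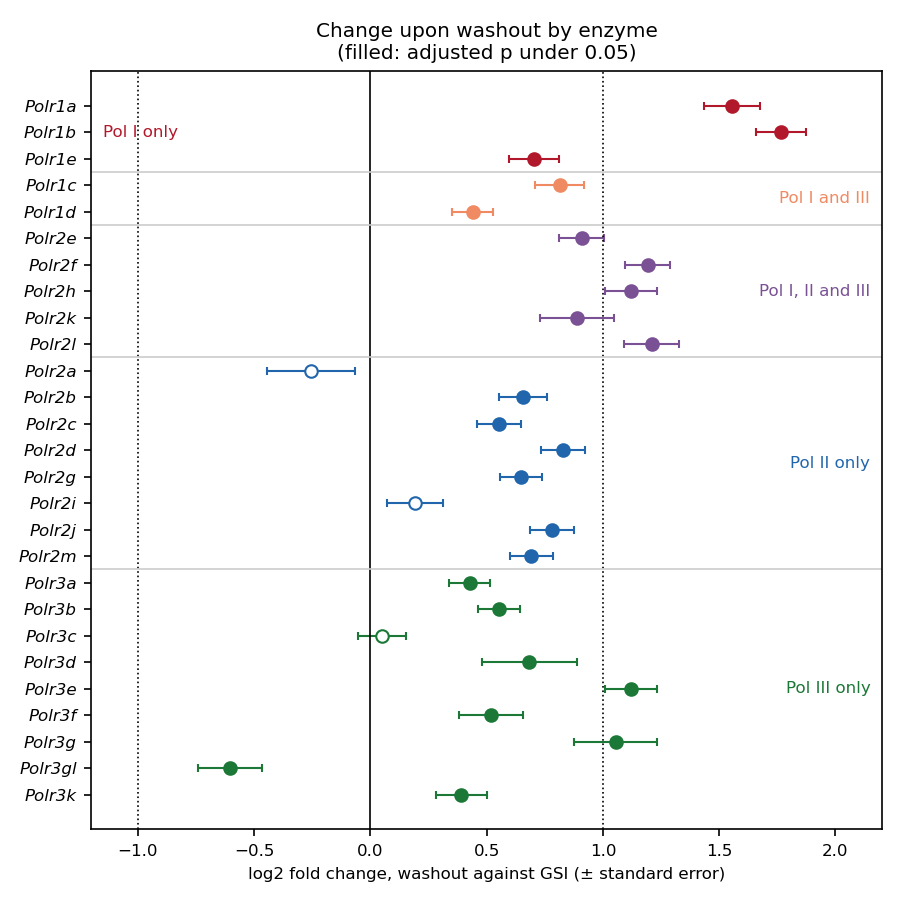
Log2 fold change (washout against GSI, x axis) of 27 subunit genes with its standard error as bars, colored by enzyme; filled points have an adjusted p under 0.05, and dotted lines mark a log2 fold change of 1 in either direction. Polr1b (1.76) and Polr1a (1.56) lie farthest to the right, Polr3gl (-0.60) is the filled point on the left, and Polr2a, Polr2i and Polr3c are open.

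The subunits common to all 3 enzymes rose together. All 5 passed the test, with log2 fold changes between 0.89 and 1.21 and a median of 1.12, and 3 of them passed both thresholds. Polr2l, a small zinc-binding subunit of the core, was at 15.9 and 14.4 CPM in GSI and at 35.1 and 35.2 CPM in washout (1.21, SE 0.12, adjusted p = 0.000647). Polr2f, an acidic subunit that helps to hold the largest subunit in place, was at 38.5 and 41.3 CPM in GSI and at 87.7 and 94.4 CPM in washout (1.19, SE 0.10, adjusted p = 0.000438). Polr2h was at 19.1 and 17.4 CPM in GSI and at 39.5 and 40.0 CPM in washout (1.12, SE 0.11, adjusted p = 0.000694). In these genes every washout library was above every GSI library by far more than replicates differed. Polr2e, a subunit of the jaw that grips incoming DNA, changed by 0.91 (adjusted p = 0.000798). Polr2k, the lowest in CPM of the 28, was at 7.25 and 7.06 CPM in GSI and at 13.3 and 13.2 CPM in washout (0.89, SE 0.16, adjusted p = 0.00484), and its change was 0.51 with GC and length offsets (adjusted p = 0.0384).

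Of the 8 subunits of polymerase II alone, 6 rose and none passed both thresholds, with a median log2 fold change of 0.65. Polr2b, the second-largest subunit, was the most abundant of the 28 genes in CPM, at 205 and 190 CPM in GSI and at 324 and 299 CPM in washout (0.66, SE 0.10, adjusted p = 0.003). Polr2m, which binds the enzyme and is not part of its core, was at 165 and 164 CPM in GSI and at 273 and 258 CPM in washout (0.69, adjusted p = 0.00174). Polr2d and Polr2g form the stalk of the enzyme, and Polr2c and Polr2j the pair on which it assembles. Polr2d went from 33.2 and 33.9 CPM to 60.6 and 58.6 CPM, the largest change in this group (0.83, SE 0.10, adjusted p = 0.00101). The changes of Polr2c, Polr2g and Polr2j were 0.55, 0.65 and 0.78, and their washout libraries lay above the GSI libraries. Polr2c shares 15.3% of its exon bases with Dok4 and Polr2j 15.9% with Lrwd1, on the other strand in each case, and whether reads were counted by strand is not given in the sources used here, so these values are uncertain. With GC and length offsets the change of Polr2g was 0.36 (adjusted p = 0.00929).

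Polr2a, the largest and catalytic subunit, which carries the C-terminal repeat domain, did not pass the test. It was at 55.9 and 83.6 CPM in the GSI libraries and at 56.4 and 60.0 CPM in the washout libraries (mm9 chr11:69547499-69572139, log2 fold change -0.26, SE 0.19, adjusted p = 0.297). The washout values lay between the GSI values, and the GSI libraries differed from each other by more than the groups did. Without GSI replicate 1 the log2 fold change was -0.53 (adjusted p = 0.0310), and without GSI replicate 2 it was 0.069 (adjusted p = 0.752), so the direction rests on which GSI library is kept. With GC and length offsets it was -0.012 (adjusted p = 0.957). Polr2i, a subunit that aids RNA cleavage and proofreading, was at 36.9 and 31.0 CPM in GSI and at 38.9 CPM in each washout library and did not pass (0.19, SE 0.12, adjusted p = 0.228). With total counts alone its log2 fold change was -0.0081. Polr2i shares 26.8% of its exon bases with Tbcb on the other strand and is uncertain for the same reason as Polr2c.

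**Figure D3:**
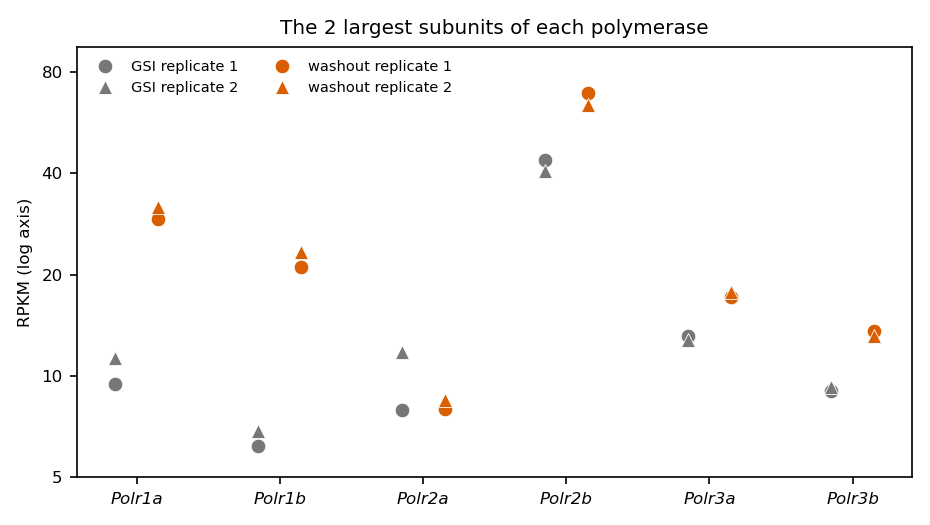
CPM per kilobase of exon (RPKM, log axis) of the largest and second-largest subunit of each polymerase in each library; gray is GSI, orange washout, circles replicate 1, triangles replicate 2. The orange points of Polr1a and Polr1b stand well above the gray ones, whereas those of Polr2a (7.98 and 8.49) lie between its gray points.

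Levels of different genes were compared per exon length. Such levels remain approximate, since the aligner allowed introns of up to 3000 bases and Polr1a has 7 longer ones, Polr2a 1, Polr3a 0 and Polr3b 13. Per length, Polr1a had a mean of 10.4 RPKM in GSI and 30.6 RPKM in washout, Polr2a 9.87 and 8.23 RPKM, and Polr3a 13.0 and 17.4 RPKM. The largest subunits thus lay between 9.87 and 13.0 RPKM in GSI, and Polr1a had the highest mean of them in washout. Within each library the ratio of Polr1a to Polr2a RPKM was 1.20 and 0.958 in GSI and 3.67 and 3.75 in washout. The ratio of Polr1a to Polr3a was 0.724 and 0.886 in GSI and 1.71 and 1.79 in washout. For either ratio the groups did not overlap, but with 2 libraries against 2 an exact two-sided permutation test cannot give a p below 0.333, which was its value for both. The ratio of the largest to the second-largest subunit was also taken within each enzyme. Polr1a to Polr1b was 1.53 and 1.65 in GSI and 1.39 and 1.37 in washout, Polr3a to Polr3b was 1.45 and 1.38 in GSI and 1.25 and 1.35 in washout, and Polr2a to Polr2b was 0.180 and 0.290 in GSI and 0.115 and 0.132 in washout. Polr2f (73.5 RPKM in GSI, 168 RPKM in washout) and Polr2g (75.2 and 118 RPKM) were the most abundant per length of the 27 subunit genes with an exon length, which leave out Polr2m. Polr2b shares 81.6% of its exon bases with a further gene model on the same strand in the annotation used for exon lengths. The authors counted reads over another annotation. Whether the overlap touches the counts of Polr2b was not tested, so they are uncertain.

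Of the 10 subunits of polymerase III alone, 8 rose, 1 fell and 1 did not pass, with a median log2 fold change of 0.54. The catalytic subunits rose by less than those of polymerase I. Polr3a was at 61.4 and 59.9 CPM in GSI and at 80.2 and 83.0 CPM in washout (0.43, SE 0.09, adjusted p = 0.00862), and Polr3b was at 43.7 and 44.7 CPM in GSI and at 66.0 and 63.5 CPM in washout (0.55, SE 0.09, adjusted p = 0.00369). Of this difference only the ratio of Polr1a to Polr3a was tested, by the exact permutation test given above, which could not reach a p below 0.333. The call for Polr3a was lost without either GSI library (adjusted p = 0.0581 and 0.0601) and under total-count scaling (adjusted p = 0.0723).

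Polr3d and Polr3e form a pair that acts in initiation and termination. Polr3e, whose promoter is shown above, was at 43.9 and 37.2 CPM in GSI and at 89.1 and 88.1 CPM in washout, the largest change among the Polr3 genes (log2 fold change 1.12, SE 0.11, adjusted p = 0.000668). Polr3d was at 22.6 and 16.0 CPM in GSI and at 35.0 and 27.2 CPM in washout (0.68, SE 0.20, adjusted p = 0.0313). The replicates of Polr3d lay far apart within each group, and its call was lost without GSI replicate 2 (adjusted p = 0.106), without washout replicate 1 (adjusted p = 0.0859) and under total-count scaling (adjusted p = 0.0955). Crcp, a subunit of the stalk that carries another name, did not pass (0.21, SE 0.10, adjusted p = 0.139). Polr3k, the small subunit used in RNA cleavage, was at 57.6 and 59.6 CPM in GSI and at 82.8 and 70.5 CPM in washout (0.39, SE 0.11, adjusted p = 0.0256). Its call was lost without GSI replicate 1 (adjusted p = 0.136), without GSI replicate 2 (0.0802), without washout replicate 1 (0.100), under total-count scaling (0.189) and with GC and length offsets (log2 fold change 0.17, adjusted p = 0.154).

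Polr3c, Polr3f and either Polr3g or Polr3gl form the trimer that lets polymerase III open a promoter. These genes did not move as a unit. Polr3c was at 39.2 and 36.5 CPM in GSI and at 40.4 and 37.9 CPM in washout and did not pass (log2 fold change 0.05, SE 0.10, adjusted p = 0.717), with overlapping groups and a value of -0.15 with total counts alone. Polr3f was at 48.8 and 41.7 CPM in GSI and at 71.0 and 58.5 CPM in washout (0.52, SE 0.14, adjusted p = 0.0197). The call for Polr3f was lost without GSI replicate 2 (adjusted p = 0.0947), without washout replicate 1 (adjusted p = 0.0559) and under total-count scaling (adjusted p = 0.0986).

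Polr3g and Polr3gl are paralogs that take the same place in the trimer. Polr3g is known from embryonic stem cells and tumor cells, and Polr3gl from most tissues. Polr3g (mm9 chr13:81812842-81850012) was at 10.1 and 11.7 CPM in GSI and at 25.2 and 19.5 CPM in washout, a 2.08-fold rise (log2 fold change 1.05, SE 0.18, adjusted p = 0.00384). Polr3gl (mm9 chr3:96381795-96398104) was at 30.7 and 28.3 CPM in GSI and at 21.1 and 17.6 CPM in washout (-0.60, SE 0.14, adjusted p = 0.0119). Their groups did not overlap, and the paralogs moved in opposite directions. Polr3gl was the subunit gene that fell, and its call was lost without GSI replicate 1 (-0.55, adjusted p = 0.0713). Polr3g kept an adjusted p under 0.05 whichever library was left out. Its log2 fold change fell below 1 without GSI replicate 1 or washout replicate 1 (lowest value 0.85). The value was also below 1 under total-count scaling (0.855) and with GC and length offsets (0.863).

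**Figure D4:**
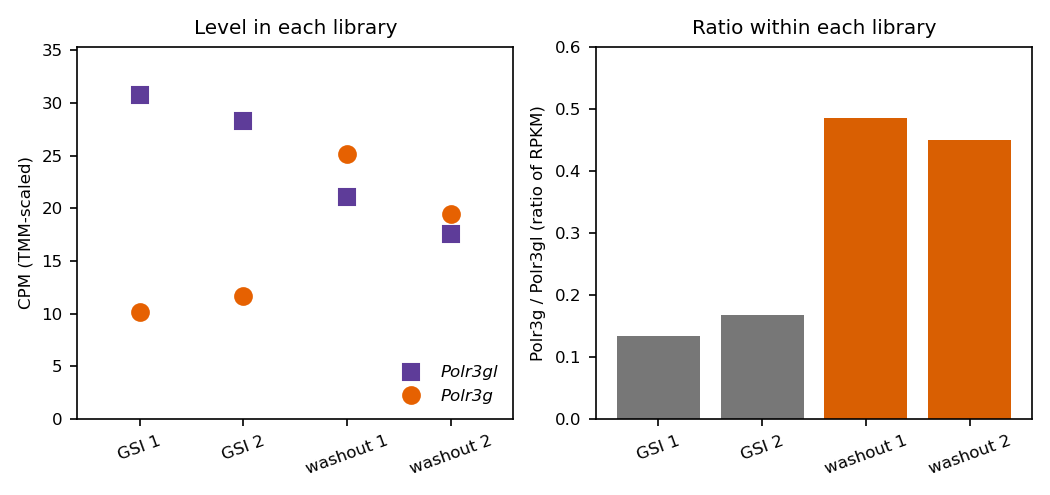
Left, TMM-scaled CPM of Polr3g (circles) and Polr3gl (squares) in each library; right, the ratio of Polr3g to Polr3gl RPKM in each library, as bars from 0. The circles rise and the squares fall from GSI to washout, and the ratio goes from 0.134 and 0.167 to 0.485 and 0.450.

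Because both paralogs are read from the same library, their ratio does not depend on how libraries were scaled. Per length, Polr3g was at 2.57 and 2.96 RPKM in GSI and at 6.40 and 4.95 RPKM in washout, and Polr3gl at 19.2 and 17.7 RPKM in GSI and at 13.2 and 11.0 RPKM in washout. Polr3gl therefore remained the more abundant of the paralogs per length in every library. The ratio of Polr3g to Polr3gl was 0.134 and 0.167 in GSI and 0.485 and 0.450 in washout. The log2 ratio was 1.64 higher in washout, with an SD of 0.227 between the GSI libraries and of 0.0751 between the washout libraries (exact two-sided permutation p = 0.333, the smallest that 2 against 2 allows). With GC and length offsets, which act on each gene separately, this difference was 1.55. Of the introns of Polr3g, 5 of 7 are longer than the 3000 bases that the aligner allowed, beside 1 of 7 in Polr3gl. Reads that span such introns could not be aligned across them in either group, and their part in the ratio was not tested. In all, 14 of the 27 genes with an annotation hold an intron of that size, among them Polr1a with 7 and Polr3b with 13.

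Factors that work with the enzymes were followed as lists. Of 8 initiation and termination factors of polymerase I, 6 were tested, 3 rose and 1 fell, with a median log2 fold change of 0.41. Taf1d, a subunit of the promoter selectivity factor, had the largest change (1.26, adjusted p = 0.000581), while Ubtf, which covers active ribosomal DNA, changed by 0.72 and Rrn3, which brings the enzyme to the promoter, by 0.73. Ttf1, which ends transcription by polymerase I, fell by 0.33 on the log2 scale (adjusted p = 0.0360). Taf1a was listed at 0 counts in every library, and Ptrf was too low to be tested.

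Of 18 general transcription factor genes of polymerase II, 13 rose and 5 did not pass, with a median log2 fold change of 0.39. None passed both thresholds. The largest change was that of Gtf2f2, a subunit of TFIIF (0.73, adjusted p = 0.00233). Of 18 genes for pausing, elongation and the enzymes of the C-terminal domain, 5 rose (Larp7, Nelfa, Nelfe, Ctdp1 and Tcea1), 3 fell (Cdk9, Ccnt2 and Rpap2) and 10 did not pass, with a median of 0.21. The share that rose was near the 27.0% of all genes tested that were higher, and the share that fell was under the 25.4% that were lower. Larp7, which binds the small RNA that holds the elongation kinase P-TEFb inactive, had the largest rise (1.04, adjusted p = 0.000627), and Ccnt2, a cyclin of P-TEFb, the largest fall (-0.41, adjusted p = 0.0105). The other P-TEFb cyclin of the list, Ccnt1, did not pass (0.012, adjusted p = 0.955).

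Of 15 initiation factor genes of polymerase III, 7 rose, 2 fell and 6 did not pass, with a median log2 fold change of 0.26. The largest rise was that of Snapc4 (0.91, adjusted p = 0.00108) and the largest fall that of Snapc5 (-0.54, adjusted p = 0.0408), both subunits of the complex that binds small nuclear RNA promoters. Snapc3, of the same complex, was the other gene that fell (-0.41, adjusted p = 0.0418). Gtf3a, the factor for the small ribosomal RNA genes, was at 69.1 and 69.4 CPM in GSI and at 122 and 138 CPM in washout (0.90, adjusted p = 0.000905). Maf1, the repressor that binds polymerase III when nutrients are short, was at 148 and 142 CPM in GSI and at 94.7 and 108 CPM in washout, and fell by 0.52 on the log2 scale (adjusted p = 0.00708). The change of Maf1 was thus opposite in sign to that of most polymerase III subunits.

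**Figure D5:**
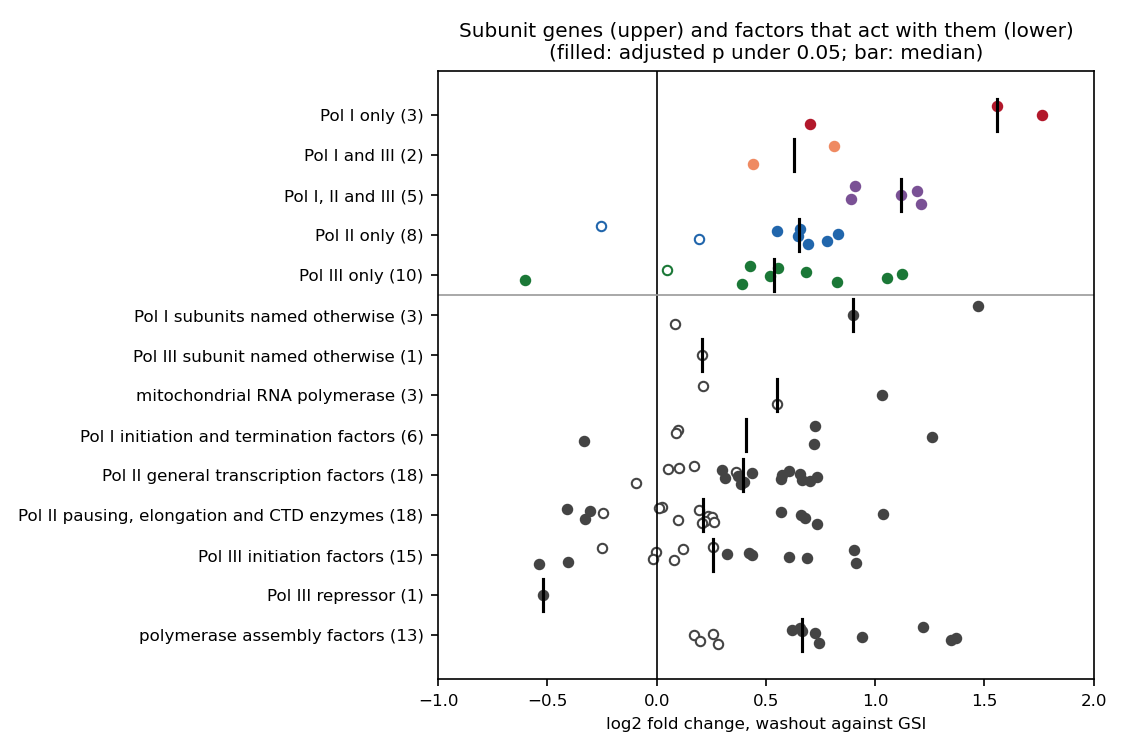
Log2 fold change (washout against GSI, x axis) of the subunit genes by enzyme (upper, colored) and of the lists of genes that work with them (lower, gray), with the number of genes tested in parentheses; filled points have an adjusted p under 0.05 and vertical bars are medians. The bars of the subunits common to all enzymes (1.12) and of polymerase I alone (1.56) lie farthest to the right, and Maf1 (-0.52) lies to the left.

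Genes that help to assemble the polymerases in the cytoplasm were mostly higher. Of 13, 9 rose, 4 did not pass and 0 fell, with a median log2 fold change of 0.67. Ruvbl1, an ATPase of the chaperone complex that joins subunits, was at 38.1 and 41.1 CPM in GSI and at 95.7 and 109 CPM in washout (1.37, adjusted p = 0.000421). Ruvbl2, its partner (1.35), and Gpn1, a GTPase needed for nuclear import of polymerase II (1.22), were the others past both thresholds. For the separate polymerase of mitochondria, the enzyme gene Polrmt did not pass (0.21, adjusted p = 0.126), nor did its factor Tfb2m (0.55, adjusted p = 0.0587). Tfam, which packs mitochondrial DNA, rose (1.03, adjusted p = 0.000612). Among these lists the share of genes higher is to be read beside the 27.0% of all genes tested.

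A few products of the enzymes are in the count table and were chosen after their values were seen. Rn45s, the ribosomal RNA precursor made by polymerase I, was at 17057 and 25251 CPM in GSI and at 15410 and 17890 CPM in washout and did not pass (log2 fold change -0.35, SE 0.26, adjusted p = 0.313). The kit removes ribosomal RNA before sequencing, so this level does not measure how much was made. Rmrp and Rpph1, RNAs made by polymerase III, did not pass either. Rmrp was at 4365 and 3459 CPM in GSI and at 4674 and 3808 CPM in washout (0.12, adjusted p = 0.643). Rpph1 was at 8419 and 6699 CPM in GSI and at 6305 and 6406 CPM in washout (-0.25, adjusted p = 0.308). As RNA levels, these values do not measure how much polymerase III made.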

How the data were processed

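RNA-Seq was measured in 4 Beko libraries, 2 per condition, prepared with a stranded total RNA kit after removal of ribosomal RNA. After trimming, the authors used HISAT2 2.2.1 to map reads to mm9 (1 alignment per read, introns up to 3000 bases) and summarizeOverlaps to count them. The deposited table holds these counts as they were, unnormalized, and all its columns were used. The conditions were compared by edgeR 4.0.16 under R 4.3.3 (filterByExpr, TMM, quasi-likelihood test, Benjamini-Hochberg over all genes tested), with the thresholds of the study, an adjusted p of 0.05 and a log2 fold change of 1. Standard errors follow from the F statistic and the log2 fold change. The biological coefficient of variation was 0.121. RPKM used merged exon lengths of GENCODE vM1 (mm9), to which 27 of the 28 genes and 20641 of 24391 symbols matched. Exon overlaps came from the same annotation, whereas the authors counted reads over one from Illumina's iGenomes. Polr2m had no single match. Promoters were taken from RefSeq. Replicates differed by more than sampling noise (chi-square per degree of freedom 18.2 in GSI and 28.5 in washout). The named genes are the Polr1, Polr2 and Polr3 genes, except 1 that is counted but not reported here by name, and, of each list, the largest rise and fall among those that passed and every member of lists of up to 3. Ubtf, Rrn3, Gtf3a, Snapc3, Cdk9, Ccnt1, Nelfa, Nelfe, Ctdp1, Tcea1, Rpap2, Ruvbl2, Gpn1 and the single cell type markers were named after their values were seen. The genes and lists were chosen with earlier results of these data known. Scripts were tested on simulated data. Alternatives were other scalings, DESeq2 1.42.0, filters, thinning, GC and length offsets, a replicate block and leaving out each library.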

Additional observations from a re-analysis of the deposited data

How the results depend on the processing

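Of the values of the 28 genes under the alternatives, 365 kept their direction and their side of the threshold, 17 lost the call, 4 gained it and 4 changed sign. DESeq2 called the same genes, 24 higher and 1 lower, 7 of them past both thresholds. With total counts alone 3 genes were higher past both thresholds, and the medians were 0.61 (Polr1), 0.58 (Polr2) and 0.34 (Polr3), with Polr2i at -0.0081 and Polr3c at -0.15. GlmTreat against a log2 fold change of 1 called 2. With GC and length offsets, for which Polr2m had no values, the Polr2 median was 0.652, Polr3k was lost (0.17, adjusted p = 0.154), and Polr2e took the place of Polr2h and Polr3g past both thresholds. No source says that replicate numbers mark a shared culture or day, and with only 2 pairs the correlation of deviations of same-numbered libraries (0.533 over all genes tested, 0.395 over the 28) does not settle the pairing. With the replicate block 2 genes were lower at the adjusted p, Polr3gl and Polr2a (-0.22, adjusted p = 0.0469), and with thinned counts and the block again 2 (Polr2a at -0.27, adjusted p = 0.0272). With the offsets and the block the Polr2 median was 0.655, Polr2a was at 0.021 and Polr2i passed (0.20, adjusted p = 0.0321). Leaving out each library in turn gave 19 to 24 genes higher, 1 lower (without GSI replicate 1 this was Polr2a in place of Polr3gl), 6 to 7 past both thresholds, medians of 0.77 to 0.89 (Polr1), 0.74 to 0.81 (Polr2) and 0.45 to 0.63 (Polr3), a Polr3g to Polr3gl log2 ratio difference of 1.48 to 1.81, and a Polr2a value of -0.53 to 0.069. The cause of these changes was not tested. The total of 13716199 counts in the shallowest library and the 2 libraries per group limit the precision.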
